A study of Mus musculus with 22 samples.

Results

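Kidney RNA of wild-type mice collected around midday, in the rest phase of a nocturnal animal, was set against RNA collected around midnight, in the active phase. The arrays were chosen by their titles: 3 midday arrays, with 2 pools at zeitgeber time (ZT) 4 and 1 pool at ZT8, and 4 midnight arrays, with 2 pools each at ZT16 and ZT20. These 7 arrays are among 22, of which 11 hold wild-type and 11 Clock knockout (KO) kidney RNA. Hour 6 lies midway between both midday times and hour 18 midway between both midnight times. Every array holds RNA pooled from 2 or 3 mice, so the mice of a pool cannot be told apart.

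All mice had spent 2 weeks in cycles of 12 h light and 12 h dark and then 30 h in constant darkness. Midday and midnight therefore refer to the earlier light cycle, with lights on at ZT0, and no group was in the light when killed. The KO mice came from a colony kept from heterozygous pairs, and the labels do not say whether the wild-type mice came from the same litters. The labels name the left kidney, taken whole, and give no sex or age. Nothing says that pools came from separate litters or were prepared apart, and the p-values describe how much such pools vary, which may be technical.

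The mammalian clock is a feedback loop of transcription. Clock and Arntl (Bmal1) bind E-box DNA and switch on the Per, Cry, Nr1d1 and Nr1d2 genes. The Per and Cry proteins block that activation, while the Nr1d1 and Nr1d2 proteins, also called REV-ERB alpha and beta, repress Arntl and Nfil3 through ROR elements. The kidney filters, reabsorbs and excretes with a daily cycle, and feeding, body temperature and glucocorticoid hormones also follow the time of day in mice.

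Values are log2 expression from Affymetrix whole-transcript arrays. One probe set stood for each gene, the brightest with a single gene symbol, which left 13967 genes above a floor on dim probe sets at 5.21 log2, and 5971 genes below it. A difference is the mean of the 3 midday arrays minus the mean of the 4 midnight arrays, in log2, with the standard error (SE) after ±. It was tested with limma on group means of all 22 arrays. A gene is said to rise, to fall or to be called when its Benjamini-Hochberg adjusted p over the 13967 genes was under 0.05.

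The 7 arrays correlated at 0.980 to 0.993 over all probe sets. The library labelled wild type, ZT4, pool 2 stood apart from the other 6. Over the 50 genes that differed most between KO arrays and the other wild-type arrays, its median position was 0.66, where 0 is the wild-type mean and 1 the KO mean. It lay nearer the KO mean for 34 of the 50 genes, while the other 6 arrays did so for 1 to 11 genes each, with median positions from -0.14 to 0.15. The amino acid transporter gene Slc7a12 read 10.49 in that library, 6.93 to 9.08 on the other 10 wild-type arrays and 10.32 to 10.98 on the KO arrays. Lcn2, a marker of tubular injury, read 8.36 in it, 6.36 and 6.73 on the other midday arrays and 6.07 to 6.48 at midnight. Whether it holds RNA of mice of another genotype was not tested. Without this library, 90 genes were called higher and 42 lower at midday, and calls lost without it are named beside the genes concerned.

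With all 7 arrays, 192 genes rose and 63 fell at midday, which is 1.37% and 0.451% of the genes tested (1.83% in all). Unadjusted, limma gave a p under 0.05 for 2603 of the 13967 genes, 1837 higher and 766 lower at midday. Counts for gene lists below are to be read beside these values over all genes. Most changes were modest: 43 rises and 26 falls reached 0.5 log2, and 1 rise and 6 falls reached 1 log2. The median called rise was 0.40 and the median called fall -0.47, while the median over all genes was 0.03 and the median SE 0.09. For 239 of the 255 called genes the 3 midday arrays lay wholly above or below the 4 midnight arrays, as they did for 14.5% of all genes tested (10.9% higher and 3.6% lower). The calls were made from these same arrays, so their separation follows largely from the selection and adds no support. Since tissue was taken whole, fewer cells of a type and less RNA per cell cannot be told apart for any of these genes.

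**Figure D1:**
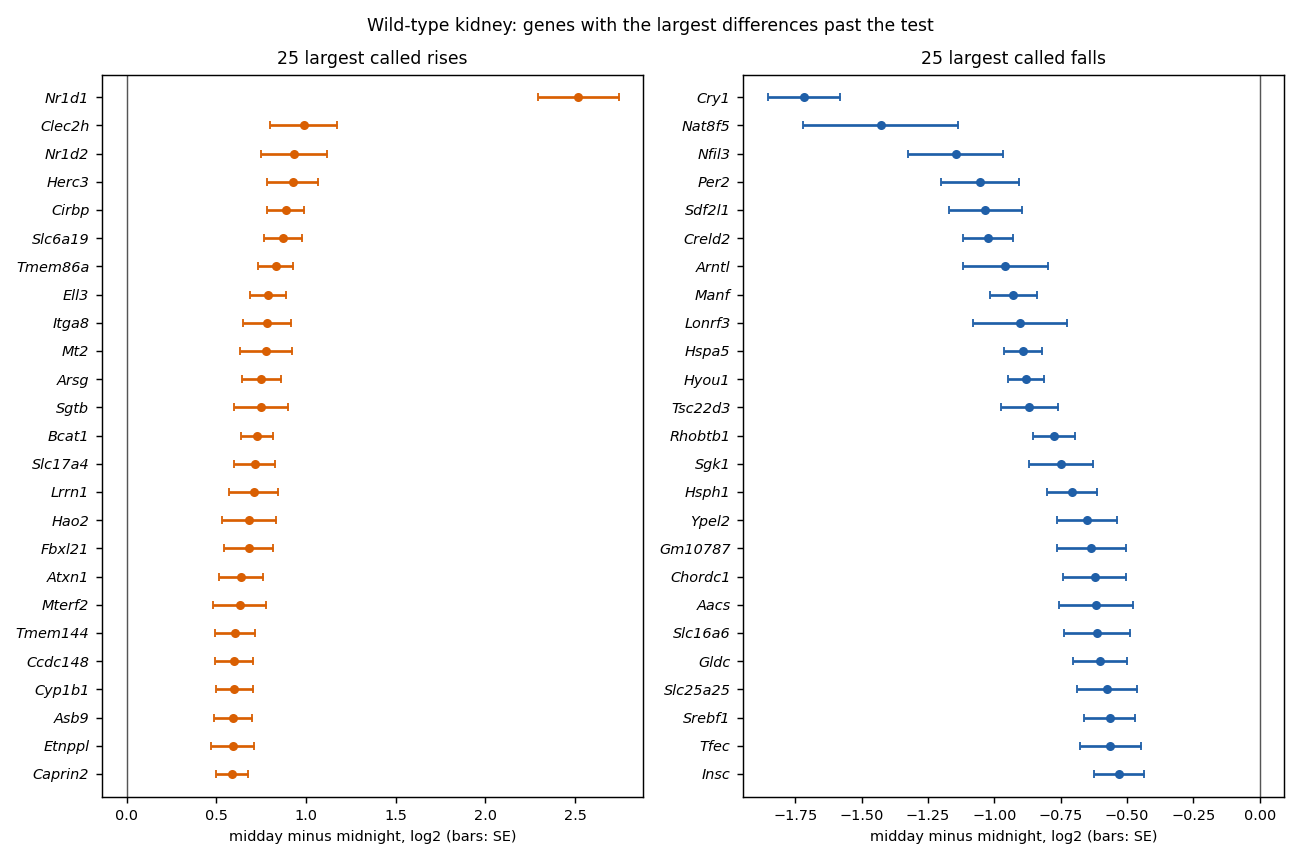
The 25 largest called rises (left) and the 25 largest called falls (right), as the midday minus midnight difference in log2 with SE bars, from 3 midday and 4 midnight wild-type arrays. Nr1d1, at 2.52, stands well above the next rise, and Cry1, at -1.72, leads the falls, followed by several clock and chaperone genes.

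Nr1d1, the nuclear receptor that represses Arntl, had the largest rise. It read 10.04 and 9.22 at ZT4 and 10.19 at ZT8, against 7.25 and 7.55 at ZT16 and 7.19 and 7.21 at ZT20. All midday arrays lay far above all midnight arrays, and the lowest midday value came from the library that stood apart. The difference was 2.52 ± 0.23 (limma adjusted p = 4.6e-05), a 5.73-fold higher level at midday, and without that library it was 2.81. Nr1d2, its paralog, read 9.51, 8.99 and 9.87 at midday, against 8.94 and 9.18 at ZT16 and 7.90 and 8.08 at ZT20. The groups overlapped, with ZT16 as high as part of ZT4 and ZT20 about 1 unit lower. Its rise of 0.93 ± 0.18 (limma adjusted p = 0.0202) was lost without the ZT8 pool (adjusted p = 0.13) and without either ZT20 pool (adjusted p = 0.0978 and 0.0833).

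Cry1, a cryptochrome repressor of Clock and Arntl, showed the largest fall. It read 5.45 and 6.09 at ZT4 and 5.92 at ZT8, against 7.51 and 7.65 at ZT16 and 7.47 and 7.51 at ZT20. The 4 midnight arrays lay within 0.2 units of each other and above every midday array. The difference was -1.72 ± 0.14 (limma adjusted p = 1.39e-05), and every fit that left out 1 array called it. Per2, a period repressor, read 6.81 and 6.26 at ZT4 and 7.35 at ZT8, against 8.31 and 8.17 at ZT16 and 7.64 and 7.32 at ZT20. It fell by 1.05 ± 0.15 (limma adjusted p = 0.00263), although the ZT8 array lay just above the lowest ZT20 array.

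Arntl, the partner of Clock, read 7.20 and 7.74 at ZT4 and 5.58 at ZT8, against 7.37 and 7.28 at ZT16 and 8.36 and 8.19 at ZT20. Midday and midnight overlapped, since ZT4 lay at the level of ZT16 and only the ZT8 array was low. The fall of 0.96 ± 0.16 (limma adjusted p = 0.00852) rested on that array: without it the difference was -0.33 (adjusted p = 0.337). Nfil3, a repressor that competes with Dbp for D-box DNA, read 6.55, 7.06 and 6.15 at midday, against 7.86, 7.37, 7.95 and 7.76 at midnight. The groups did not overlap, and the fall was 1.15 ± 0.18 (limma adjusted p = 0.00603), with an adjusted p of 0.0577 without the ZT8 pool.

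Of the 17 clock genes measured in the lists of activators, repressors and PAR bZIP factors, these 6 were called and 11 were not. Over all genes tested, 1.83% were called. Dbp, a PAR bZIP activator of output genes, read 9.10 and 7.99 at ZT4 and 10.83 at ZT8, against 8.20 and 8.36 at ZT16 and 7.43 and 7.58 at ZT20. Its ZT8 value was the highest of the 7, but a ZT4 pool lay below both ZT16 pools, and the difference of 1.41 ± 0.40 was not called (limma adjusted p = 0.0851). Ciart, a repressor of Clock and Arntl, likewise read 8.39 at ZT8, 6.44 and 5.69 at ZT4 and 4.86 to 6.37 at midnight (difference 1.26 ± 0.43, adjusted p = 0.148). Its second probe set gave 0.46 (adjusted p = 0.484). Cry2, Per1, Per3, Bhlhe40, Bhlhe41, Tef, Hlf, Rora and Clock itself had differences from -0.40 in Cry2 to 0.36 in Bhlhe41, with adjusted p from 0.0681 to 0.993. For Tef and Per3 the ZT8 array was the highest of the 7 and a ZT4 array the lowest.

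**Figure D2:**
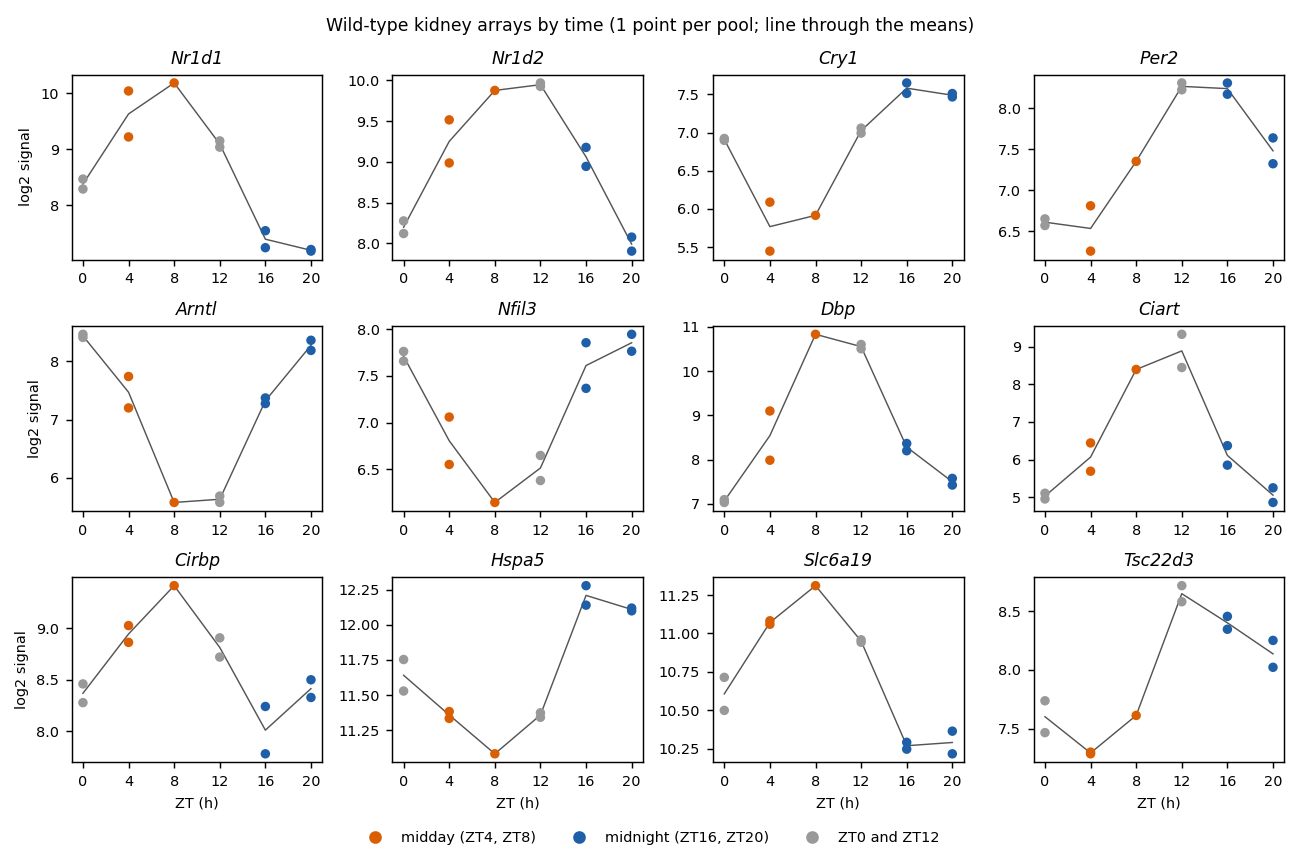
log2 signal of 12 genes on the 11 wild-type arrays against ZT in hours, 1 point per pool, with a line through the mean of each time; orange marks midday, blue midnight and grey ZT0 and ZT12. Nr1d1, Cry1, Cirbp, Hspa5, Slc6a19 and Tsc22d3 separate midday from midnight, whereas Arntl, Dbp and Ciart differ as much between ZT4 and ZT8 as between midday and midnight.

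The promoters of 3 clock genes are shown because their known elements belong to the loop described above. RefSeq promoter windows of build GRCm38.p6, from 250 bases before to 50 bases after the start of transcription, were at hand for 11052 of the 13967 genes tested. Shares below are of genes with a window, and a gene counted once if any of its windows held a match. Both strands were searched for exact letters, and a stretch of each window is printed 5′ to 3′ in the gene's direction, with the match in capitals. Arntl (chr7:113207491-113207560, plus strand) and Nfil3 (chr13:52980995-52981101, minus strand) hold the ROR element TAGGTCA, which in Nfil3 is on the opposite strand, and Cry1 (chr10:85185059-85185164, minus strand) holds the E-box CACGTG:
Arntl: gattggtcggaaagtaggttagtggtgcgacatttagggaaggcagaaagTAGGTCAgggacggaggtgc
Nfil3: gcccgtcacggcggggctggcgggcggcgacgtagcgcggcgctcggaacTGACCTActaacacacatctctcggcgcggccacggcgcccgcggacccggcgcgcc
Cry1: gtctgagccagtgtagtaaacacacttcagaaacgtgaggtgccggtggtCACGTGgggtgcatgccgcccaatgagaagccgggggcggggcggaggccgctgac
The ROR element occurred in 2.47% of all genes with a window and in 2.52% of those that rose. It occurred in 4 of the 57 that fell (7.02%: Arntl, G6pc, Glul and Nfil3). The E-box occurred in 11.3% of all genes with a window, in 15.1% of those that rose and in 10.5% of those that fell. It occurred in 4 of the 8 clock repressors with a window (Per1, Cry1, Ciart and Bhlhe41). Of the D-box forms, TTATGNAAN occurred in 2.56% of all genes with a window, 2.52% of rises and 3.51% of falls. The shares for TTANGTAA were 1.82%, 2.52% and 5.26%. A match describes letters and does not show binding.

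Among 15 listed output genes of the clock, 1 rose and 3 fell, against 1.37% and 0.451% of all genes tested. Rhobtb1, a BTB-domain protein, read 8.45, 8.72 and 8.04 at midday, against 9.12, 9.11, 9.24 and 9.24 at midnight. It fell by 0.78 ± 0.08 (limma adjusted p = 0.00015) with no overlap and kept the call without each array in turn. Ypel2 fell by 0.65 ± 0.11 (adjusted p = 0.0106), a call lost without the ZT8 pool or without ZT20 pool 2. Alas1, the first enzyme of heme synthesis, fell by 0.46 ± 0.09 (adjusted p = 0.0211), with overlapping groups and a call lost without any single ZT4 or ZT16 pool. Ddc, the decarboxylase that makes dopamine in the proximal tubule, read 9.85, 10.17 and 9.56 at midday, against 8.99, 9.02, 9.47 and 9.63 at midnight. It rose by 0.58 ± 0.09 (adjusted p = 0.00496), with the ZT8 array just below one ZT20 array. Fbxl21, an F-box protein that acts on cryptochromes, was not on that list. This gene read 6.39, 6.31 and 6.58 at midday, against 5.56, 5.89, 5.65 and 5.87 at midnight. It rose by 0.68 ± 0.14 (adjusted p = 0.023), and the call was lost without ZT8, ZT16 pool 1 or ZT20 pool 1.

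Of the chaperones of the endoplasmic reticulum (ER), 9 of the 19 measured fell at midday and none rose, against 0.451% of all genes that fell. These proteins fold secreted and membrane proteins, and their genes answer the unfolded protein response. All 19 had differences below 0, although 10 did not pass the test. Their median difference was -0.29, against 0.03 over all genes. The mean level over the 19 genes ranged from 9.80 to 9.95 on the 3 midday arrays and from 10.22 to 10.42 on the 4 midnight arrays.

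Hspa5 (BiP), the main ER chaperone, read 11.33 and 11.38 at ZT4 and 11.08 at ZT8, against 12.14 and 12.28 at ZT16 and 12.12 and 12.10 at ZT20. Every midday array was at least 0.7 units below every midnight array. It fell by 0.89 ± 0.07 (limma adjusted p = 1.39e-05), and leaving out any array kept the call. Hyou1, an ER relative of the large heat shock proteins, read 9.45, 9.30 and 9.12 at midday, against 10.09, 10.23, 10.22 and 10.14 at midnight. Its fall was as large, 0.88 ± 0.07 (adjusted p = 1.39e-05), again with no overlap. Creld2, a secreted ER stress protein, read 8.08, 8.10 and 7.95 at midday, against 9.19, 9.26, 8.98 and 8.85 at midnight.

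Creld2 fell by 1.03 ± 0.10 (limma adjusted p = 5.88e-05) with the groups well apart. Manf, an ER protein that is also secreted, read 8.08, 8.33 and 7.91 at midday, against 9.09, 9.25, 8.91 and 8.88 at midnight, and fell by 0.93 ± 0.09 (adjusted p = 7.65e-05). Sdf2l1, part of an ER chaperone complex, read 7.57, 7.36 and 7.33 at midday, against 8.52, 8.39, 8.74 and 8.18 at midnight, and fell by 1.04 ± 0.14 (adjusted p = 0.00165). In both genes every midday array lay at least 0.5 units below the lowest midnight array. Smaller falls were seen in the disulfide isomerase Pdia4, at 0.48 ± 0.07, the ER Hsp90 gene Hsp90b1, at 0.47 ± 0.06, and the co-chaperone Dnajb11, at 0.42 ± 0.08, with adjusted p of 0.00496, 0.00158 and 0.0167. A second disulfide isomerase, Pdia6, fell by 0.41 ± 0.08 (adjusted p = 0.0139). The dimmer probe set of Pdia4, tested on its own, gave -0.39 and was not called (limma adjusted p = 0.185). Of these 9, all but Dnajb11 and Pdia6 kept the call in each of the 7 fits that left out 1 array, the ZT4 pool 2 library included. Without the ZT8 pool neither of the pair was called, and Pdia6 was not called without ZT20 pool 1 either (highest adjusted p 0.0758). Members that were not called included the stress regulators Xbp1 (-0.29, adjusted p = 0.0943), Ddit3 (-0.22, adjusted p = 0.421) and Atf4 (-0.08, adjusted p = 0.675), and the lectin chaperones Calr (-0.21, adjusted p = 0.096) and Canx (-0.06, adjusted p = 0.635).

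The ER stress element (CCAAT, then any 9 bases, then CCACG) was searched because the unfolded protein response acts through it. It occurred in 17 of the 11052 genes with a promoter window (0.154%). Of the 17 ER chaperones with a window, 7 held it (41.2%): Hspa5, Hsp90b1, Pdia6, Calr, Canx, Dnajc3 and Creld2. Among genes with a window, it occurred in 5 of 57 that fell (8.77%) and in 0 of 159 that rose. The fifth, besides 4 chaperones, was Syvn1, an ER ubiquitin ligase, which fell by 0.44 ± 0.10 (limma adjusted p = 0.0457), a call that 6 of the 7 fits without 1 array did not make. The elements of the 4 called chaperones are given in capitals, in Hspa5 (chr2:34771975-34772093, plus strand), Hsp90b1 (chr10:86705483-86705694, minus strand), Creld2 (chr15:88819470-88819588, plus strand) and Pdia6 (chr12:17266441-17266559, plus strand):
Hspa5: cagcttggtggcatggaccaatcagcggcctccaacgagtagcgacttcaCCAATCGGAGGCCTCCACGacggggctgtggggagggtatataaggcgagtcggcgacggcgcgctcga
Hsp90b1: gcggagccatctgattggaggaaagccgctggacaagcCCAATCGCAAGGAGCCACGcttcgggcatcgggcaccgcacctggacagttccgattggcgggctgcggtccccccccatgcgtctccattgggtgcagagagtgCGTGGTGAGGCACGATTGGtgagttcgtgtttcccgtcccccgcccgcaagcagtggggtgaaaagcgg
Creld2: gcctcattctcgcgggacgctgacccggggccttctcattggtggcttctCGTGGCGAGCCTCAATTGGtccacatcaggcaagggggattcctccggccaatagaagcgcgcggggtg
Pdia6: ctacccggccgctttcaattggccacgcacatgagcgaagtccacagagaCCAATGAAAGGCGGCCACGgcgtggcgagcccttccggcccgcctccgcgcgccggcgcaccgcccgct
The element of Hspa5 begins 65 bases before the start, Hsp90b1 has 2 matches on opposite strands, and in Creld2 the match is on the opposite strand. Calr, Canx and Dnajc3 hold the same element and were not called.

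Heat shock proteins of the cytosol and mitochondria also fell in part. These chaperones fold cytosolic and mitochondrial proteins, and heat shock factor drives many of their genes. Of 19 measured, 8 fell and none rose, against 0.451% of all genes that fell, 17 had differences below 0, and the median was -0.19. Their mean level ranged from 9.49 to 9.74 on the midday arrays and from 9.67 to 9.98 on the midnight arrays, and the groups overlapped, with ZT4 pool 2 above ZT20 pool 2. Hsph1, a large heat shock protein, read 9.86, 10.04 and 9.81 at midday, against 10.81 and 10.85 at ZT16 and 10.40 and 10.39 at ZT20. Midday lay below midnight throughout, and the ZT16 pools were the highest. It fell by 0.71 ± 0.09 (limma adjusted p = 0.00165). Chordc1, a partner of Hsp90, fell by 0.62 ± 0.12 (adjusted p = 0.017). The Hsp90 gene Hsp90aa1 fell by 0.43 ± 0.07 (adjusted p = 0.0107), with its other probe sets at -0.42 and -0.39.

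The other called members were the Hsp90 co-chaperones Stip1 and Fkbp4, the large heat shock protein Hspa4l, the small one Hspb1 and the Hsp70 co-chaperone Dnaja1, with differences from -0.47 in Hspb1 to -0.32 in Fkbp4. Tested on its own, the further probe set of Dnaja1 gave -0.41 and was not called (limma adjusted p = 0.219). That of Hspb1 gave -0.54 (limma adjusted p = 0.0247). Only Hsph1 of the 8 kept its call without the ZT8 pool. Without ZT4 pool 2 the calls of Hspb1 and Dnaja1 were lost, without ZT16 pool 1 the same pair, and without ZT16 pool 2 those of Chordc1 and Dnaja1. Hspb1 was also not called without ZT4 pool 1 or either ZT20 pool. Members near 0 included the constitutive Hsp70 gene Hspa8 (-0.02), Hspa4 (-0.02) and the mitochondrial Hspa9 (0.00), and the inducible Hspa1a was at -0.19 ± 0.20. The ER and heat shock lists share no gene, and together they made up 17 of the 63 falls (27.0%).

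**Figure D3:**
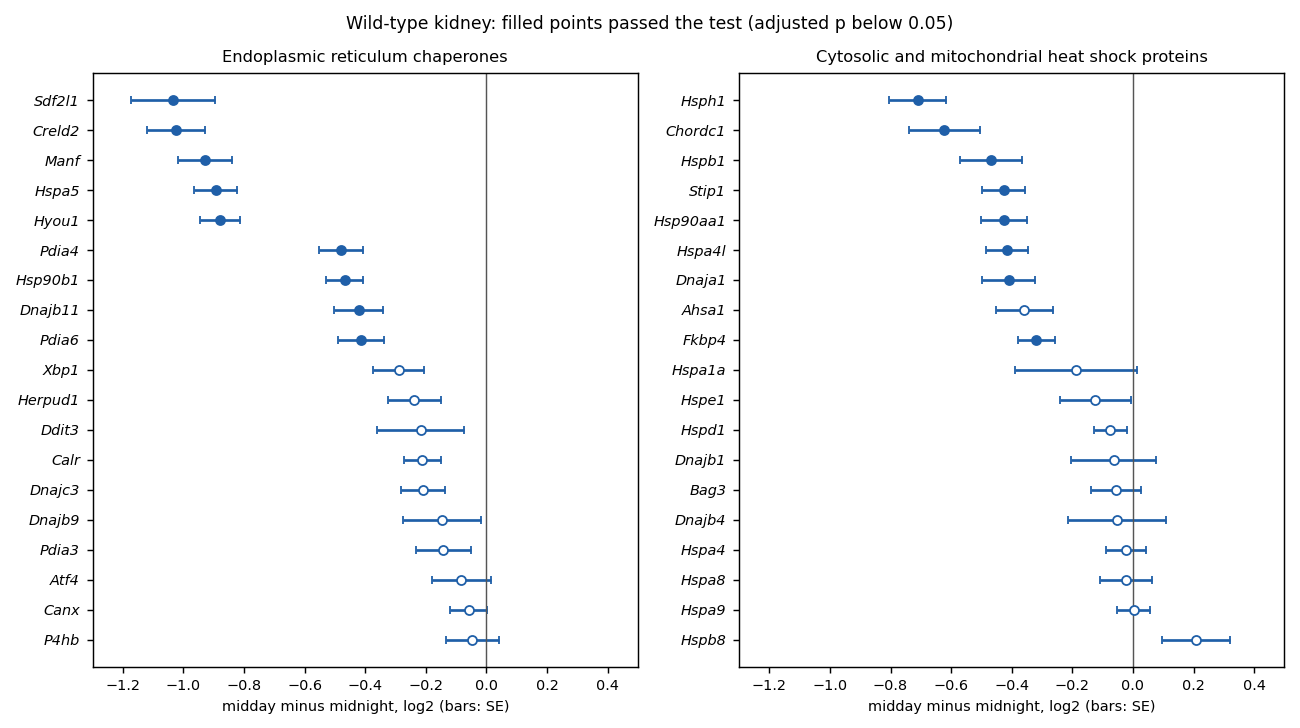
Midday minus midnight difference in log2 with SE bars for the 19 measured ER chaperones (left) and the 19 measured heat shock proteins (right), from 3 midday and 4 midnight arrays; filled points passed the test. All ER chaperones lie below 0, 5 of them near -0.9 to -1.0, whereas the heat shock list runs from -0.71 in Hsph1 to 0.21 in Hspb8.

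The heat shock element (GAA, any 2 bases, TTC, any 2 bases, GAA) was searched on both strands in the same windows. It occurred in 0.561% of all genes with a window. Of 16 heat shock protein genes with a window, 4 held it (25%): Hsph1, Chordc1, Hspd1 and Hspe1, of which the first pair fell. The promoter stretches of Hsph1 (chr5:149636266-149636350, minus strand) and Chordc1 (chr9:18292213-18292316, plus strand) are shown with the element in capitals, and in Chordc1 the 3 matches overlap:
Hsph1: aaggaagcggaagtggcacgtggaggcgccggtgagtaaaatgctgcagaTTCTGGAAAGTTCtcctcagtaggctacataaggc
Chordc1: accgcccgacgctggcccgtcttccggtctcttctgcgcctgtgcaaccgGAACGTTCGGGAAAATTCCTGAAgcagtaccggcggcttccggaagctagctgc
Hspd1 and Hspe1, the mitochondrial chaperonin genes, had differences of -0.07 (limma adjusted p = 0.475) and -0.12 (adjusted p = 0.589). Both hold the element without a call.

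Cirbp, a cold-inducible RNA-binding protein known to follow the daily rhythm of body temperature, moved the other way. It read 8.86 and 9.02 at ZT4 and 9.41 at ZT8, against 7.78 and 8.24 at ZT16 and 8.33 and 8.50 at ZT20. No midnight array reached a midday array. The rise was 0.89 ± 0.10 (limma adjusted p = 0.000654) and held without each array in turn. Rbm3, the second gene of this kind, had a difference of 0.22 ± 0.10 (adjusted p = 0.27), and its 2 further probe sets gave 0.22 and 0.21. Body temperature was not measured here.

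Genes known to respond to glucocorticoids went in both directions: of 15 measured, 2 rose and 2 fell. Over all genes tested, 1.37% rose and 0.451% fell. Tsc22d3 (Gilz), a glucocorticoid-induced regulator, read 7.30, 7.28 and 7.61 at midday, against 8.45, 8.35, 8.25 and 8.02 at midnight. It fell by 0.87 ± 0.11 (limma adjusted p = 0.00105) with no overlap. Sgk1, a kinase that raises sodium channel activity, read 8.13, 8.46 and 8.21 at midday, against 9.25, 9.01, 9.03 and 8.78 at midnight.

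Sgk1 fell by 0.75 ± 0.12 (limma adjusted p = 0.00637), also with the groups apart. The metallothionein genes, whose proteins bind zinc and copper, were higher at midday. Mt2 read 9.89, 10.19 and 10.47 at midday, against 9.26, 9.56, 9.20 and 9.61 at midnight, and rose by 0.78 ± 0.14 (adjusted p = 0.0144). Mt1 rose by 0.41 ± 0.08 (adjusted p = 0.019). Both metallothionein calls were lost without the ZT8 pool, and that of Mt1 without ZT16 pool 1. Of 14 immediate early genes, limma called 0 and 3 had an unadjusted p under 0.05. The growth regulator Myc read 6.82, 7.20 and 7.19 at midday, against 8.59, 7.62, 7.50 and 7.58 at midnight (-0.75 ± 0.22, adjusted p = 0.093), with a single ZT16 pool well above the rest. The glucocorticoid half-site pair ACANNNTGT occurred in 5.2% of all genes with a promoter window, 8.81% of rises and 8.77% of falls.

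Transcripts of sodium transporters showed no call. Over all genes tested 1.83% were called, so a list this short may hold none by its size alone. Of 11 measured, limma called 0, and 1 had an unadjusted p under 0.05: Slc9a3 (NHE3), the sodium-proton exchanger of the proximal tubule. It read 10.27, 10.21 and 10.39 at midday, against 10.04, 9.98, 9.81 and 9.79 at midnight. The groups did not overlap, but the difference of 0.38 ± 0.10 missed the threshold (adjusted p = 0.0561). The loop diuretic target Slc12a1 (0.04 ± 0.08), the thiazide target Slc12a3 (0.11 ± 0.08), the sodium channel subunits Scnn1a, Scnn1b and Scnn1g (-0.09, 0.17 and -0.01) and the phosphate transporter Slc34a1 (0.03 ± 0.05) all overlapped between groups.

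Among 15 regulators of distal sodium transport, the 2 called were Tsc22d3 and Sgk1, both lower at midday, against 0.451% of all genes that fell. The mineralocorticoid receptor gene Nr3c2 had a difference of 0.35 ± 0.10 (limma adjusted p = 0.0981), with all midday arrays above all midnight arrays. Hsd11b2, which shields that receptor from glucocorticoids, was at -0.19 ± 0.07 (adjusted p = 0.19). The kinases Wnk1 and Wnk4 were at 0.03 and 0.07, and the ubiquitin ligase Nedd4l at 0.04.

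Of 15 genes of water and urea handling, limma called 0. An unadjusted p under 0.05 was found for 7, of which 2 were higher and 5 lower at midday. Over all genes tested, that count was 2603 of 13967, with 1837 higher and 766 lower. The vasopressin-regulated water channel Aqp2 read 10.27, 10.62 and 10.51 at midday, against 10.76, 10.52, 10.79 and 10.63 at midnight (-0.21 ± 0.09, adjusted p = 0.257). The vasopressin receptor gene Avpr2 was at -0.29 ± 0.12 (adjusted p = 0.206), and the osmolyte transporters Slc5a3 and Slc6a6 were at -0.27 and 0.28 (adjusted p = 0.0966 and 0.115).

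Some other transporters of the tubule were called. Slc6a19 (B0AT1), which reabsorbs neutral amino acids from the filtrate, read 11.08 and 11.06 at ZT4 and 11.31 at ZT8, against 10.25, 10.29, 10.22 and 10.36 at midnight. The midday arrays lay about 0.7 units or more above every midnight array. It rose by 0.87 ± 0.11 (limma adjusted p = 0.000959) and kept the call without each array. Of 21 genes of amino acid transport and metabolism, Slc6a19 and Ddc rose and none fell, against 1.37% and 0.451% of all genes tested. Differences were above 0 in 18 of the 21, against 59.67% of all genes.

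Bcat1, which starts the breakdown of branched-chain amino acids, was not on that list and rose by 0.73 ± 0.09 (limma adjusted p = 0.00111), with 9.18, 8.94 and 9.34 at midday, against 8.38, 8.47, 8.50 and 8.36 at midnight. Gldc, of the glycine cleavage system, fell by 0.60 ± 0.10 (adjusted p = 0.00852), a call lost without the ZT8 pool. The phosphate transporter Slc20a2 rose by 0.48 ± 0.10 (adjusted p = 0.0235), and Agtr1a, the angiotensin receptor gene, by 0.33 ± 0.07 (adjusted p = 0.0312). Both calls were lost without ZT4 pool 2, ZT8 or ZT16 pool 1, and that of Agtr1a also without ZT20 pool 2. Slc17a4, a transporter of organic anions and phosphate, read 6.07, 5.99 and 5.86 at midday, against 5.28, 5.21, 5.15 and 5.39 at midnight. It rose by 0.71 ± 0.11 (adjusted p = 0.00634) with no overlap and kept the call without each array. Its midnight values lay around the floor of 5.21 for dim probe sets.

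Of 20 genes of glucose handling, 1 rose and 2 fell, against 1.37% and 0.451% of all genes tested, and the median difference was 0.01. Pck1, the entry enzyme of glucose synthesis in the proximal tubule, read 12.08, 11.91 and 12.23 at midday, against 12.71, 12.69, 12.43 and 12.36 at midnight. It fell by 0.47 ± 0.08 (limma adjusted p = 0.00933) with no overlap. G6pc, the last enzyme of that pathway, read 12.17, 12.12 and 11.76 at midday, against 12.38, 12.34, 12.47 and 12.49 at midnight.

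G6pc fell by 0.40 ± 0.07 (limma adjusted p = 0.00778), again with midday below midnight throughout. Slc2a2 (GLUT2), which lets glucose leave the tubule cell, read 10.91, 11.01 and 11.13 at midday, against 10.59, 10.76, 10.61 and 10.71 at midnight, and rose by 0.35 ± 0.07 (adjusted p = 0.0257). Without the ZT4 pool 2 library, Pck1 and Slc2a2 were not called (adjusted p = 0.0641 and 0.0711), nor without ZT16 pool 1. G6pc was not called without the ZT8 pool (adjusted p = 0.114), and neither was Slc2a2, which was also lost without ZT20 pool 1.

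Calls on the lipid lists were single genes, while 1.37% of all genes tested rose and 0.451% fell. Srebf1, a regulator of fatty acid synthesis, read 8.16, 8.14 and 7.98 at midday, against 8.80, 8.49, 8.70 and 8.65 at midnight, and was the 1 called gene of 12 on its list. It fell by 0.57 ± 0.10 (limma adjusted p = 0.00877), a call just missed without the ZT8 pool (adjusted p = 0.0509). Cpt1a, which admits fatty acids to mitochondria, rose by 0.35 ± 0.08 (adjusted p = 0.0389) and was the 1 called gene of 21 on the list of fatty acid oxidation, a call lost in 5 of the 7 fits without 1 array, all but those without ZT4 pool 1 and ZT16 pool 2. Of 14 cholesterol synthesis genes limma called 0, and 2 had an unadjusted p under 0.05. Aacs, which activates acetoacetate, and Slc16a6, a carrier of ketone bodies, fell by 0.62 ± 0.14 and 0.61 ± 0.12 (adjusted p = 0.0388 and 0.0219), and both calls were lost without ZT4 pool 2 or ZT20 pool 2, that of Slc16a6 also without ZT8, and that of Aacs without ZT16 pool 2 or ZT20 pool 1. Hao2, a peroxisomal oxidase of hydroxy acids, rose by 0.68 ± 0.15 (adjusted p = 0.0337), but read 11.35 in that library and 10.71 and 10.73 on the other midday arrays, and was not called without it (0.47, adjusted p = 0.164) or in 5 of the 6 other fits without 1 array.

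Single calls came from other lists. Igfbp3, a carrier of insulin-like growth factors, rose by 0.46 ± 0.09 (limma adjusted p = 0.0157), the 1 called gene of 20 in insulin and nutrient signalling. Igfbp1, an insulin-repressed relative, read 7.30, 7.11 and 7.74 at midday, against 6.11, 6.37, 6.39 and 6.70 at midnight. Its groups did not overlap, but the difference of 0.99 ± 0.26 was not called (adjusted p = 0.0651). Gabarapl1, an autophagosome protein, rose by 0.44 ± 0.09 (adjusted p = 0.025). Tfrc, the transferrin receptor gene, fell by 0.49 ± 0.12 (adjusted p = 0.0455), and the carrier gene Slc16a14 by 0.44 ± 0.10 (adjusted p = 0.0349), with overlapping groups in both. Each of these 4 calls was lost without the ZT8 pool. Without the ZT4 pool 2 library, Gabarapl1 and Slc16a14 were not called (adjusted p = 0.0945 and 0.0787), while Igfbp3 and Tfrc were. Without ZT16 pool 1, Gabarapl1, Tfrc and Slc16a14 were not called. Without ZT16 pool 2, Tfrc and Slc16a14 were not called, and without either ZT20 pool, Gabarapl1 and Tfrc were not.

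**Figure D4:**
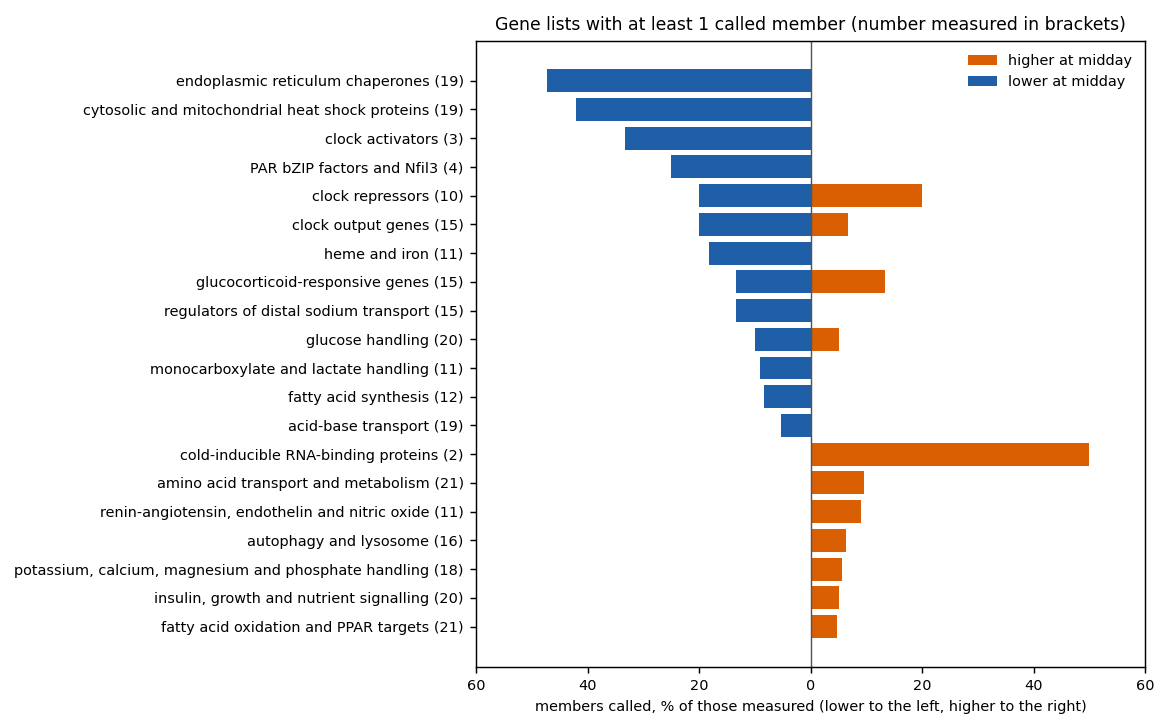
Share of measured members called higher (orange, right) and lower (blue, left) at midday, in percent, for the gene lists with at least 1 call; the number measured is in brackets. The ER chaperone list (9 of 19) and the heat shock list (8 of 19) have the longest bars among lists of more than 4 genes. Over all genes tested, 1.37% were called higher and 0.451% lower.

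The remaining large rises were a mixed set. Clec2h, a C-type lectin-like receptor, read 9.74, 9.53 and 9.72 at midday, against 8.65, 8.74, 8.50 and 8.81 at midnight, and rose by 0.99 ± 0.19 (limma adjusted p = 0.0167). Herc3, a ubiquitin ligase, read 9.20, 9.29 and 9.35 at midday, against 8.18, 8.64, 8.16 and 8.45 at midnight, and rose by 0.93 ± 0.14 (adjusted p = 0.00496). Tmem86a, a lysoplasmalogenase, read 8.79, 8.67 and 8.84 at midday, against 7.63, 7.76, 8.14 and 8.22 at midnight, and rose by 0.83 ± 0.10 (adjusted p = 0.000736). None of these 3 overlapped between groups, and the midday arrays of each lay within 0.3 units of one another. The call of Clec2h was lost without the ZT8 pool, while the other calls held without each array.

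Itga8, an integrin of mesenchymal cells, read 7.93, 8.37 and 8.10 at midday, against 7.23, 7.52, 7.47 and 7.20 at midnight, and rose by 0.78 ± 0.13 (limma adjusted p = 0.00933). Ell3, an elongation factor, read 6.69, 6.71 and 6.86 at midday, against 5.86, 5.98, 6.07 and 5.95 at midnight, and rose by 0.79 ± 0.10 (adjusted p = 0.0012). Arsg, a lysosomal sulfatase, read 8.89, 8.67 and 8.78 at midday, against 7.69, 7.93, 8.14 and 8.37 at midnight, and rose by 0.75 ± 0.11 (adjusted p = 0.00358). All 3 kept their calls without each array, and their groups did not overlap. Cyp1b1, Asb9, Ccdc148 and Caprin2, with rises from 0.59 to 0.60, did so as well. Calls of Sgtb, Lrrn1, Atxn1 and Mterf2 were lost without the ZT4 pool 2 library and at least 1 other array, those of Tmem144 and Etnppl without the ZT8 pool, and that of Etnppl also without ZT20 pool 1. Among the falls, Lonrf3 read 6.09, 6.86 and 6.73 at midday, against 7.36, 7.51, 7.49 and 7.51 at midnight, and fell by 0.90 ± 0.18 (adjusted p = 0.0197), a call lost without ZT4 pool 1. Tfec (-0.56) and Insc (-0.53) lost theirs without the ZT8 pool, and Tfec also without ZT16 pool 1. Slc25a25 (-0.58) and the transcript Gm10787 (-0.63) lost theirs without ZT4 pool 2, ZT16 pool 1 and at least 1 other array.

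Markers of kidney cell types and of neighbouring tissues gave no call. Limma called 0 of 10 proximal tubule, 6 thick limb, 5 distal convoluted tubule, 9 principal cell, 8 intercalated cell, 4 podocyte, 10 endothelial, 10 stromal and 13 immune markers, with 1, 0, 0, 4, 2, 0, 3, 2 and 4 at an unadjusted p under 0.05. Of 1 red blood cell, 4 fat, 2 adrenal, 3 liver and 4 muscle markers above the floor it called 0, with 0, 0, 0, 1 and 1 at an unadjusted p under 0.05. The proximal tubule markers averaged 12.47 to 12.49 on the midday arrays and 12.41 to 12.48 on the midnight arrays, and the label of kidney tissue was met by high Slc34a1, Umod and Slc12a1. Intercalated cell markers had differences above 0 in 8 of 8 genes, with mean levels of 8.82 to 8.92 at midday and 8.68 to 8.80 at midnight. Immune markers did so in 12 of 13 genes, from 7.16 to 7.46 at midday and 7.04 to 7.36 at midnight, highest in the ZT4 pool 2 library. Over all genes tested, 59.67% were above 0 and 2603 of 13967 had an unadjusted limma p under 0.05. All 11 proliferation genes were below 0 without a call, and their mean level was highest in ZT20 pool 1 (6.33). Their part in the results was not tested.

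Large housekeeping complexes did not move past the test. Over all genes tested, 1.83% were called and 2603 of 13967 had an unadjusted limma p under 0.05. Short lists may therefore hold no call by their size alone. Limma called 0 of 74 subunits of oxidative phosphorylation, 0 of 54 ribosomal proteins and 0 of 37 proteasome subunits, and 2, 0 and 1 had an unadjusted p under 0.05. Limma also called 0 of 23 genes of organic ion and drug transport, 20 of detoxification, 14 of kynurenine and NAD metabolism, 16 of arachidonic acid metabolism, 18 of ribosome biogenesis and 12 of tight junctions, with 8, 3, 5, 3, 3 and 3 at an unadjusted p under 0.05. Among 10 hypoxia-responsive genes, 7 of tubular injury, 7 of interferon response and 14 androgen-dependent or sex-biased genes it called 0 as well, with 1, 2, 2 and 1 at an unadjusted p under 0.05. The 3 complexes had median differences of -0.03, 0.03 and -0.01, and the proteasome gene with the largest size, Psmd3, was at 0.20 ± 0.07.

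The ZT0 and ZT12 arrays, 2 pools each, were not part of the comparison and show where the called genes lay between both phases. On a scale from 0 at the midnight mean to 1 at the midday mean, the 192 genes that rose had a median position of 0.42 at ZT0 (quartiles 0.28 and 0.59) and 0.65 at ZT12 (quartiles 0.44 and 0.89). Of these genes, 69 lay nearer midday at ZT0 and 132 at ZT12. The 63 genes that fell had medians of 0.50 at ZT0 and 0.73 at ZT12, and 31 and 39 lay nearer midday.

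Highest means of the 192 rises were at ZT4 for 80 genes, ZT8 for 100, ZT12 for 9 and ZT0 for 3. Highest means of the 63 falls were at ZT16 for 27, ZT20 for 25, ZT12 for 8 and ZT0 for 3. The genes were called from these same midday and midnight arrays. A highest mean at midday for rises, or at midnight for falls, therefore follows largely from the selection. Called rises were about as often higher at ZT8 than at ZT4 (104 of 192) as the reverse, and called falls were lower at ZT8 in the other 41 of 63. ZT8 is a lone pool, and the ZT4 mean includes the library that stood apart. The counts for ZT4 and ZT8 therefore cannot decide which time was the peak. Hspa5 was near its midday level at ZT12, with 11.34 and 11.37, and intermediate at ZT0, with 11.75 and 11.53. Tsc22d3 was the opposite, with 8.72 and 8.58 at ZT12 and 7.74 and 7.46 at ZT0.

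The same contrast in Clock KO kidneys used 4 midday arrays (2 at ZT4 and 2 at ZT8) and 3 midnight arrays (1 at ZT16 and 2 at ZT20), and called 172 genes higher and 57 lower (1.23% and 0.408% of those tested, 1.64% in all). Both contrasts share the estimate of spread but no array. Clock itself read 8.49 to 8.91 at wild-type midday, 8.87 to 9.06 at wild-type midnight and 8.73 to 9.11 on the 7 KO arrays. Where its probes lie relative to the deleted part is not given in the sources used here, so it does not check the genotype. The KO ZT20 pools stood apart from the other 9 KO arrays, for example in the male-biased cytochrome gene Cyp4a12a, at 5.02 and 4.79 against 6.07 to 9.56. Whether these pools differ from the others in the sex of their mice, which the labels do not give, was not tested, and it bears on every KO midnight value.

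Of the 255 genes called in wild type, 225 (88.2%) had the same sign in KO, against 60.5% of all genes tested. For the 192 rises the median difference was 0.40 in wild type and 0.15 in KO, and for the 63 falls -0.47 and -0.25. The genes were selected by the wild-type test, which enlarges the wild-type medians only. A smaller median in KO therefore does not show a weaker rhythm there. Without the KO ZT20 pools, the KO medians were 0.22 and -0.35, and 239 of the 255 signs were shared. Of the 255, 44 were also called in KO with the same sign, which is 17.3% of the wild-type calls and 19.2% of the KO calls. The ER chaperone list had a median of -0.29 in wild type and -0.34 in KO, where 8 of 19 were called lower. The heat shock list had medians of -0.19 in wild type and -0.06 in KO, where 2 of 19 were called lower.

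**Figure D5:**
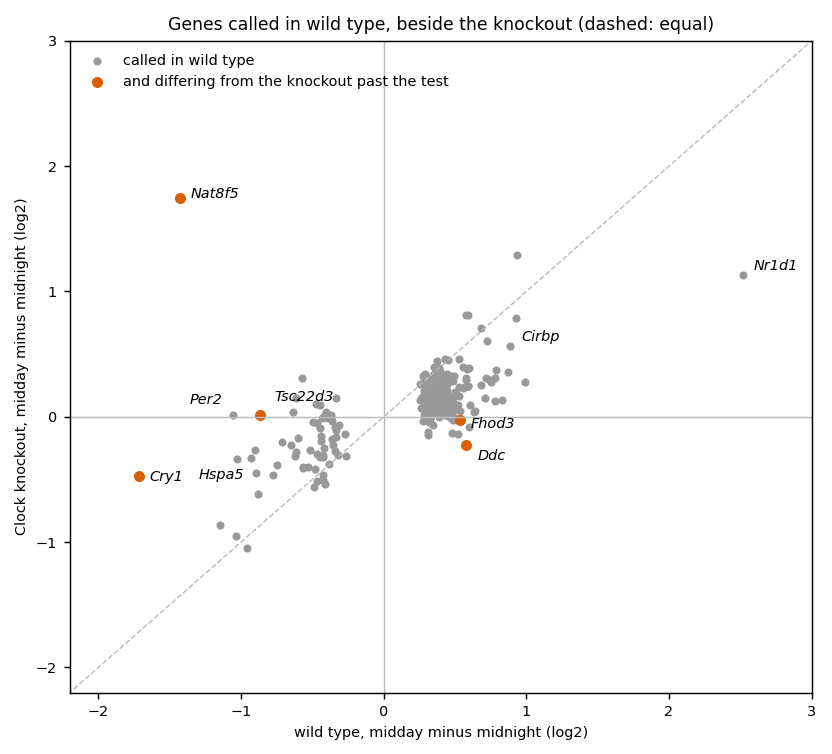
Midday minus midnight difference in log2 in wild type (x axis) against Clock KO (y axis) for the 255 genes called in wild type; orange points also passed the test of the difference between genotypes, and the dashed line marks equal values. Most points lie between the dashed line and the x axis, and Nat8f5 lies on the opposite side in KO. The genes were selected by the wild-type test, which enlarges values on the x axis only.

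The difference between the genotypes was itself tested, as wild type minus KO. It passed for 11 genes (0.0788% of those tested), 5 of them called in wild type: Cry1, Nat8f5, Tsc22d3, Ddc and Fhod3. Cry1 differed by -1.25 ± 0.19 (limma adjusted p = 0.0281), with a midday minus midnight difference of -1.72 in wild type and -0.47 in KO. The KO arrays of Cry1 read 7.02 and 7.29 at ZT4 and 7.62 and 7.09 at ZT8, against 7.89 at ZT16 and 7.61 and 7.67 at ZT20. One KO midday array thus reached the KO midnight arrays, and the KO midday arrays lay about 1 unit or more above those of wild type. Tsc22d3 differed by -0.88 ± 0.15 (adjusted p = 0.0478), at -0.87 in wild type and 0.01 in KO. Ddc differed by 0.81 ± 0.12 (adjusted p = 0.0281), at 0.58 in wild type and -0.23 in KO, where it read 10.07, 10.02, 9.85 and 9.79 at midday, against 10.23, 10.20 and 10.05 at midnight. Fhod3, a formin of the actin cytoskeleton, differed by 0.56 ± 0.10 (adjusted p = 0.0478), at 0.53 in wild type and -0.03 in KO.

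Nat8f5, of the Nat8 acetyltransferase family, read 8.41, 7.36 and 8.43 at midday, against 9.48, 10.09, 8.93 and 9.48 at midnight in wild type. In KO it read 5.76, 6.10, 7.31 and 7.91 at midday, against 5.72, 4.49 and 4.86 at midnight. It was therefore lower at midday in wild type (-1.43 ± 0.29, limma adjusted p = 0.0226) and higher in KO (1.75), a difference of -3.18 ± 0.41 (adjusted p = 0.0199). Its wild-type fall was not called without the ZT4 pool 2 library (adjusted p = 0.118) or without either ZT16 pool. Without the KO ZT20 pools limma called 0 genes for the difference between genotypes, with 469 at an unadjusted p under 0.05, and the values for Cry1, Nat8f5, Tsc22d3, Ddc and Fhod3 were -1.08, -2.48, -0.69, 0.88 and 0.44. No gene was called either without wild-type ZT16 pool 2, KO ZT8 pool 1 or KO ZT20 pool 2 alone, with 1415, 977 and 858 genes at an unadjusted p under 0.05. Nr1d1 differed by 1.39 ± 0.32 and Hspa5 by -0.44 ± 0.10, and neither passed (both adjusted p = 0.15).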

How the data were processed

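The deposited values are log2 expression, which the authors obtained by RMA according to the submitters' processing notes. That method gives every array the same distribution of probe signals, so a change common to most genes would be lost. No software version, genome build or scan date is given in the sources used here. Of 35556 probe sets, 21789 had 1 gene symbol in the platform annotation, 1621 had several and 12146 were unlisted. Dim probe sets, with a mean under the 30th percentile, were dropped, and each gene kept its brightest.

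Differences were contrasts of 12 group means in limma 3.58.1 (R 4.3.3) with 10 residual degrees of freedom, so the lone ZT8 and KO ZT16 pools are assumed to vary like the other groups. Precision is limited by the number of arrays.

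Members and gene lists were chosen with earlier results of these data known. Lists are described by counts, with no test. Named genes were the 25 largest called rises and falls, all members of the clock, sodium and water lists, up to 8 called members of other lists (or the 2 largest), and 6 genes by the genotype difference. Pdia6, Syvn1, uncalled chaperones and genes shown for arrays that stood apart were added after their values were seen.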

Additional observations from a re-analysis of the deposited data

Results flagged for a closer look

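In the 4 midnight arrays of wild type, 1 array lay far from the other 3 for 8 of the 189 genes examined, where chance gives about 1 in 20. At ZT16 pool 2, Nr1d1 read 7.55 against 7.19 to 7.25 on the others, Mterf2 5.49 against 4.97 to 5.05, and Slc12a1 12.1 against 11.96 to 11.98. At ZT16 pool 1, Lonrf3 was low at 7.36 against 7.49 to 7.51, while Myc was high at 8.59 against 7.50 to 7.62, Scnn1a at 9.71 against 9.48 to 9.50, and Wnk4 at 8.67 against 8.44 to 8.47. At ZT20 pool 2, Kynu was low at 7.70 against 8.14 to 8.20.

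The midday minus midnight difference itself differed between wild type and KO, by limma's contrast of both differences, for 6 of the genes named. Wild type minus KO was -1.25 for Cry1, -3.18 for Nat8f5, -0.883 for Tsc22d3, 0.807 for Ddc, 0.563 for Fhod3 and -2.58 for the carboxylesterase gene Ces1g, which was not called in wild type (-0.67, adjusted p = 0.269). None passed without the KO ZT20 pools, and the part of those pools in these values was not tested.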

How the results depend on the processing

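No difference of the 73 called and named genes changed sign under any alternative run, and 29 of them kept the call in each of the 7 fits that left out 1 array. In several alternatives the difference is the same by construction, so its sign could not change there. Of the 73, 37 kept the call with the 11 wild-type arrays alone and 20 with the 7 arrays in 2 groups. In every alternative 0 kept it, as pool 2 alone called no gene. The counts over all genes moved widely. Against 192 higher and 63 lower, there were 103 higher with no filter on dim probe sets and 304 higher with a filter at the 50th percentile. Subtracting array medians gave 273 higher and 51 lower. With the 11 wild-type arrays alone the counts were 28 higher and 20 lower. After quantile normalization was repeated over those 11 arrays, again without the KO arrays, they were 25 and 30. With the 7 arrays in 2 groups they were 19 and 10. A 24 h wave gave 526 and 117, array weights 77 and 34, pool 1 alone 31 and 19, and pool 2 alone, chosen after seeing the data, 0 and 0 (1841 genes at an unadjusted limma p under 0.05). Leaving out 1 array gave 47 to 254 higher, with the lowest count without the ZT8 pool, and 24 to 65 lower; 90 and 42 genes were called without ZT4 pool 2, 67 and 33 without ZT16 pool 1, 125 higher without ZT20 pool 1 and 104 without ZT20 pool 2.

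The 9 ER chaperones became 5 with the 7 arrays alone, 4 within pool 1 and 0 within pool 2, and 7 to 9 without 1 array. The 8 heat shock proteins became 2 with the 11 wild-type arrays alone and 5 with a quantile normalization repeated over those arrays. They became 0 with the 7 arrays, 1 within pool 1, 0 within pool 2, and 1 to 7 without 1 array. The 11 genes that differed between genotypes became 0 without the KO ZT20 pools, 0 with a 24 h wave (1300 at an unadjusted limma p under 0.05) and 0 to 46 over the 14 fits, added after seeing the data, that left out 1 array. The causes were not tested.

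With the pool number as a replicate block, 342 genes were higher, 81 lower and 22 differed between genotypes, and all 73 calls held. Same-numbered pools deviated together at correlations of -0.411 to 0.547 over 45 pairs of groups, with a median of 0.119. Among the groups of this comparison the correlations ran from -0.266 to 0.472. The main fit did not treat the numbers as pairs, and whether same-numbered pools were prepared together was not tested.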
